A study of Mus musculus with 3 samples.

Results

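The T cell genes described here are 30 genes of the T cell receptor, its signaling chain and its helpers, chosen by name from a table of 27088 genes measured in B cells. All 30 names were found in the table, each on 1 row. The choice of genes was made with the SJMHE1 to PBS comparison of these libraries known, so their ratios are given as a description and no test was made on them. SJMHE1 is a small peptide of the parasitic worm Schistosoma japonicum, and allergic rhinitis was induced in female BALB/c mice, whose age the labels give as 13 weeks. In the PBS and SJMHE1 groups, mice were sensitized with 10 µg of ovalbumin (OVA) and 2 mg of aluminum hydroxide on days 0, 7 and 14 and then received 100 µg of OVA in the nose from day 21 to day 27 and again from day 29 to day 35. On days 0, 14 and 28 the PBS group was given PBS, while the SJMHE1 group was given 10 µg of SJMHE1 in an emulsion with incomplete Freund's adjuvant. Both groups were sacrificed on day 36. The adjuvant was given with the peptide and not with PBS, so that the peptide and the adjuvant cannot be told apart. Splenic B cells were isolated by flow cytometry, and each group's library is a pool of 3 mice. The series also has a Control library of healthy mice, which was not analysed here.

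A T cell recognizes antigen with a receptor made of an alpha and a beta chain, which has no signaling part of its own and depends on the CD3 chains bound to it. The kinase LCK, held near the receptor by CD4 or CD8, phosphorylates CD3, which recruits the kinase ZAP70, and ZAP70 in turn phosphorylates the scaffold LAT. Costimulatory receptors such as CD28 and ICOS strengthen the signal, and CTLA4 restrains it. B cells carry a different antigen receptor and lack CD3, which is why CD3 genes are commonly used to detect T cells in a B cell preparation.

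The promoters of the 3 CD3 genes are printed first, since CD3 defines the T cell and the T cell genes were read against it. Each is the stretch of 250 bases before the gene's start in RefSeq on build GRCm38.p6, read 5′ to 3′ on the gene's own strand. Capitals mark matches, on either strand, to TGTGGT, letters of RUNX sites, CTTTGA, letters of TCF/LEF sites, AGATAA, letters of GATA sites, or AGGAAG, letters of ETS sites.
Cd3e, chr9:45009612-45009861, minus strand: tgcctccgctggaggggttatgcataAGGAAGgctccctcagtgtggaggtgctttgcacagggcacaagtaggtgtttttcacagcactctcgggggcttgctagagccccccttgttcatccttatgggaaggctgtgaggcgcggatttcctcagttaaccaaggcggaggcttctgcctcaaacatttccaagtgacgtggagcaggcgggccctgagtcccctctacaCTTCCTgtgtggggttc
Cd3d, chr9:44981536-44981785, plus strand: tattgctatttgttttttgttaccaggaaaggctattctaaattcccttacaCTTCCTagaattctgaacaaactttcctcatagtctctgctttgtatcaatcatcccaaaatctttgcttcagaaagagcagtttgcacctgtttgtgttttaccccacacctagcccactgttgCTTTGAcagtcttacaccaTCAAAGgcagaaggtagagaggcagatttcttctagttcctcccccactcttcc
Cd3g, chr9:44980432-44980681, minus strand: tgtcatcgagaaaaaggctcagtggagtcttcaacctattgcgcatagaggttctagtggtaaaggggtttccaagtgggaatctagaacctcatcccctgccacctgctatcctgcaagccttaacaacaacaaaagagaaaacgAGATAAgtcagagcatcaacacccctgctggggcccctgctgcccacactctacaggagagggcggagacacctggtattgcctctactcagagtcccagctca
The starts of Cd3d and Cd3g lie 1355 bases apart and the genes point away from each other. Lck, which differed far less between the libraries than the CD3 genes, has a pair of starts in RefSeq that are 15269 bases apart, and both are shown for contrast.
Lck, upstream start, chr4:129573642-129573891, minus strand: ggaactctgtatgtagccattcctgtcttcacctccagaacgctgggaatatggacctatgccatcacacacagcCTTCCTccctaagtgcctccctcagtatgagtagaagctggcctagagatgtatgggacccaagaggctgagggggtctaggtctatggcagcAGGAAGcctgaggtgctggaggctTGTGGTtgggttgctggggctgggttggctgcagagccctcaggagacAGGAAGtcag
Lck, downstream start, chr4:129558373-129558622, minus strand: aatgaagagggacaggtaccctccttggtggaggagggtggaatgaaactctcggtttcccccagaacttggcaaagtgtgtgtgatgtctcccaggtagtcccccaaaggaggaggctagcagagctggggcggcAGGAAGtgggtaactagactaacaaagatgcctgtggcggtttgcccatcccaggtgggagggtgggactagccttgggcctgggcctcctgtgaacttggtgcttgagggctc
Of the 30 genes, 16 had a promoter in the RefSeq table, with 23 windows in all. The ETS letters were present in 13 of these 23 windows (56.5%) and in 29.5% of all 32851 windows of the same length. These 13 windows belong to 11 of the 16 genes, since a gene can have several windows, so the windows are not independent. The TCF/LEF letters were found in 21.7% of the windows of T cell genes and in 13.8% of all windows, the RUNX letters in 8.70% and 14.0%, and the GATA letters in 8.70% and 9.99%. A match describes these letters and is not a measured binding site.

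The libraries matched their label as B cells. The level of Cd79a, which encodes a signaling chain of the B cell receptor, was 835 FPKM in both samples, where FPKM is the number of fragments scaled to the length of the gene and the depth of the library. The 18 genes of a B cell list had a median log2 ratio of 0.08, and 0 of them differed more than 2-fold. The counts summed to 48267168 in the PBS sample and 51280237 in the SJMHE1 sample. At this depth, 3 counts, the limit that a count of 0 allows, correspond to 0.0622 and 0.0585 CPM (counts scaled to library depth), and every T cell gene was counted above it, with at least 71 counts in the PBS sample and at least 13 in the SJMHE1 sample. With 1 library per group there is no replicate check of any difference, and p-values were not computed. The intervals given are exact Clopper-Pearson intervals at the 95% level, and they cover counting error only.

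All 30 T cell genes had a lower FPKM in the SJMHE1 sample than in the PBS sample. For 26 of the 30 the level was more than 2-fold lower, and 0 were higher. Their log2 ratios, SJMHE1 to PBS, had a median of -1.92, which is a 3.79-fold lower level, whereas the median over all genes with an FPKM of 0.1 or more in either library was -0.03. A gene was counted as lower when its log2 FPKM ratio was below -1. Among all genes with an FPKM of 1 or more in either library and above 0 in both, 3.57% were lower by this rule and 2.43% were higher. Of the T cell genes, 25 passed this minimum, 13 of them in both libraries and the rest only through the PBS library, and 22 of the 25 were lower. With the minimum set at an FPKM of 0.1, which all 30 genes passed, 9.18% of all genes were lower and 6.21% were higher. Among genes with this minimum whose mean count lay between 50 and 1000, the range that holds 28 of the T cell genes, 6.49% of all genes and 26 of the 28 were lower, and 3.87% of all genes were higher. The gene nearest inside the threshold was Skap1, with a log2 ratio of -1.04, and the nearest outside was Zap70, with -0.94. The T cell genes were chosen with this contrast known, so these shares describe them and support nothing further. In sorted bulk RNA, fewer T cells and less RNA per T cell cannot be told apart.

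**Figure D1:**
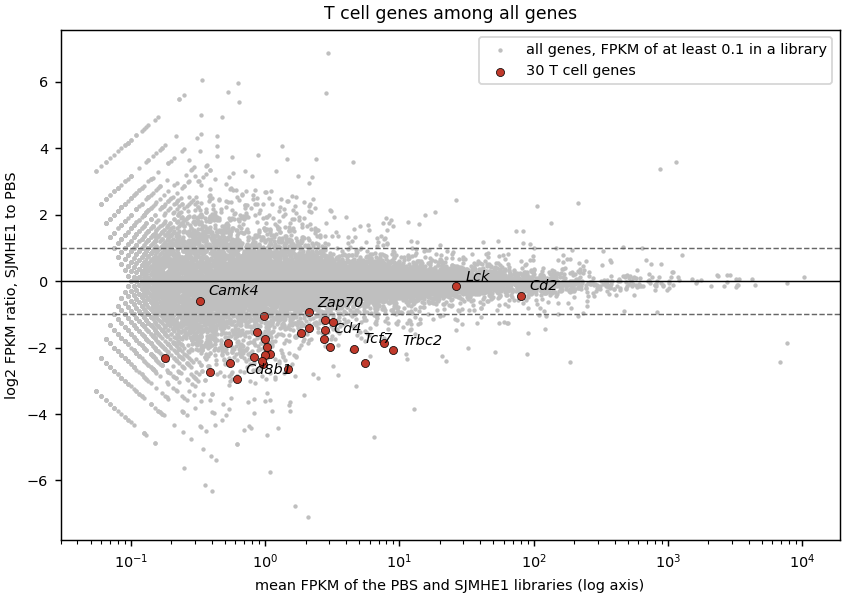
Log2 FPKM ratio of SJMHE1 to PBS (y axis) against the mean FPKM of both libraries (x axis, log scale) for all genes with an FPKM of 0.1 or more in a library (grey) and the 30 T cell genes (red), with dashed lines at a log2 ratio of 1 and -1. The red points lie below 0, 26 of them below -1, and the 4 above the lower line are Lck, Cd2, Camk4 and Zap70.

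Levels in the PBS sample spanned a wide range. Cd2, an adhesion receptor that mouse B cells also carry, was the highest with 92.5 FPKM, and Lck followed with 27.9 FPKM. The other 28 genes lay between 0.30 FPKM for Themis and 14.6 FPKM for Trbc2. In the SJMHE1 library these 28 genes lay between 0.06 and 3.46 FPKM, again with Themis lowest and Trbc2 highest. The median FPKM of the 30 genes was 2.17 in the PBS sample and 0.55 in the SJMHE1 sample, and 25 and 13 of them reached an FPKM of 1. The summed reads of the 30 genes were 27436 in the PBS sample, 0.0568% of all counts with an interval from 0.0562% to 0.0575%, and 15534 in the SJMHE1 sample, 0.0303% with an interval from 0.0298% to 0.0308%. Lck and Cd2 held 13332 and 11168 of these reads. Without them the share was 0.0292% in the PBS sample and 0.00851% in the SJMHE1 sample, a log2 ratio of -1.78 (interval, -1.83 to -1.73).

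**Figure D2:**
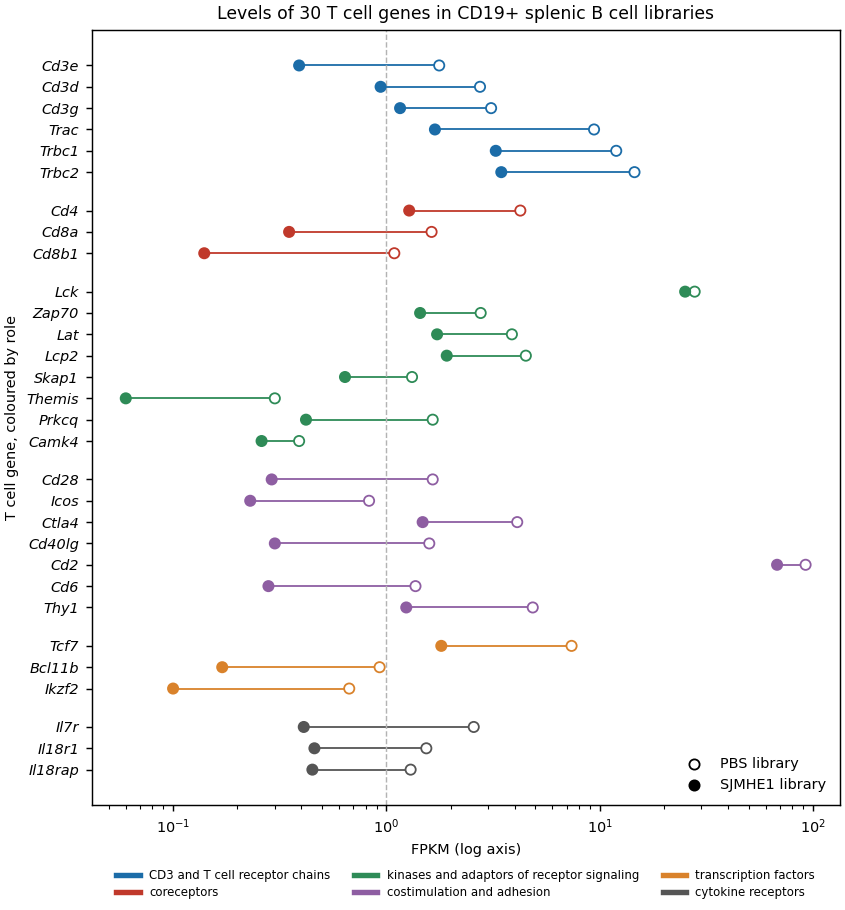
FPKM of each of the 30 T cell genes (x axis, log scale) in the PBS sample (open circles) and the SJMHE1 library (filled circles), grouped and coloured by role, with a dashed line at an FPKM of 1. The filled circle lies to the left of the open one for all 30 genes, and the gap is narrowest for Lck, at 27.9 and 25.2 FPKM.

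The CD3 and T cell receptor chains, which form the receptor complex itself, were more than 2-fold lower for 6 of 6 genes, with a median log2 ratio of -1.98. Cd3e (chr9:44998740-45009622 on build mm10, as are all gene positions), a signaling chain needed for assembly of the complex, was at 1.77 FPKM with 397 counts in the PBS sample and at 0.39 FPKM with 94 counts in the SJMHE1 sample. The result was a log2 ratio of -2.18 (interval, -2.52 to -1.85). Its neighbours on the chromosome, Cd3d (chr9:44981786-44987339) and Cd3g (chr9:44969572-44980431), whose products pair with that of Cd3e in the complex, differed less. For Cd3d the level was 2.75 FPKM with 276 counts and 0.94 FPKM with 101 counts, a log2 ratio of -1.55 (interval, -1.89 to -1.21). For Cd3g it was 3.10 FPKM with 559 counts and 1.16 FPKM with 222 counts, a log2 ratio of -1.42 (interval, -1.65 to -1.19). The interval of Cd3e does not overlap that of Cd3g, but with the counts divided by 4, as explained with the plot of ratios, the change of their ratio, chosen after the values were seen, had an interval from -1.57 to 0.10.

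Trac (chr14:54220521-54224206), the constant gene of the alpha chain, was at 9.42 FPKM with 485 counts in the PBS sample and at 1.69 FPKM with 93 counts in the SJMHE1 sample. Its log2 ratio of -2.48 (interval, -2.81 to -2.16) was the lowest among the receptor chains. Trbc1 (chr6:41538218-41539881) and Trbc2 (chr6:41546730-41548352) are the pair of constant genes of the beta chain, of which a T cell uses one. Trbc1 had 11.97 FPKM with 493 counts and 3.26 FPKM with 143 counts, a log2 ratio of -1.88 (interval, -2.16 to -1.61). Trbc2 had 14.58 FPKM with 554 counts and 3.46 FPKM with 139 counts, a log2 ratio of -2.08 (interval, -2.35 to -1.80). Both beta chain genes were lower by a similar amount, and the change of the Trbc1 to Trbc2 ratio was 0.21 on the log2 scale, with an interval from -0.18 to 0.60.

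The levels of Trbc1 and Trbc2 taken one by one are uncertain, because their sequences are nearly the same and reads could have been assigned to either. In GENCODE M21 the first exon, which is coding, has 375 bases in both genes and differs at 1 base, an identity of 99.7%. The bases around this position are shown, 5′ to 3′ on the plus strand, with the base that differs in capitals.
Trbc1, exon 1, chr6:41538417-41538537: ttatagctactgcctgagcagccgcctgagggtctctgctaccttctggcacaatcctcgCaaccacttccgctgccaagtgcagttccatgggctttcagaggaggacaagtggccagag
Trbc2, exon 1, chr6:41546929-41547049: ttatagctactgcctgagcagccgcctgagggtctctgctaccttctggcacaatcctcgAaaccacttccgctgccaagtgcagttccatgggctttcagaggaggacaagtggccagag
Of the windows of 50 bases, 61.1% in the transcript Trbc1-201 and 44.0% in Trbc2-201 also occur in the other gene. Trac, Trbc1 and Trbc2 had in sum 1532 counts in the PBS sample and 375 in the SJMHE1 sample, a log2 ratio of -2.12 (interval, -2.28 to -1.95).

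The rearranging segments of the receptor, which are joined to the constant genes in T cells, were also counted. The table holds 138 V, D and J segments of the alpha, beta, gamma and delta chains, and their reads summed to 863 in the PBS sample and 278 in the SJMHE1 sample. The log2 ratio of the sums was -1.72, with an interval from -1.92 to -1.52. Segments with at least 1 count numbered 93 in the PBS sample and 58 in the SJMHE1 sample, of which 39 were shared. Counted in only 1 sample were 54 segments for PBS and 19 for SJMHE1. Over all 27088 genes, 3960 were listed at 0 in the PBS sample and 4244 in the SJMHE1 sample. How many of all genes were counted in only 1 sample was not computed, so the 54 and 19 segments cannot be set against it. Segments with few counts easily fall to a listed 0, so these numbers do not measure receptor diversity. The alpha segments Trav had 211 and 99 counts, a log2 ratio of -1.18 (interval, -1.54 to -0.83). The beta segments Trbv had 495 and 107 counts, a log2 ratio of -2.30 (interval, -2.61 to -1.99). These intervals do not overlap, but with the counts divided by 4 they do, from -1.92 to -0.46 for Trav and from -2.94 to -1.68 for Trbv. Whether reads were split between similar segments, or lost because of their similarity, was not tested. The most counted segments were Trbv13-1 with 58 and 4 counts, Trbv13-3 with 51 and 10, and Trbv19 with 50 and a listed 0. A listed 0 is not a measured absence here. Among the 3309 genes with 15 to 49 counts in the PBS sample, 238 were listed at 0 in the SJMHE1 sample and 63 had 1 to 3 counts, so that a listed 0 can be a failed estimate.

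The coreceptors, which bind MHC class II in the case of CD4 and class I in the case of CD8, were lower for 3 of 3 genes. Cd4 (chr6:124864692-124888221) was at 4.25 FPKM with 944 counts in the PBS sample and at 1.28 FPKM with 302 counts in the SJMHE1 sample, a log2 ratio of -1.73 (interval, -1.92 to -1.54). Cd8a (chr6:71373427-71379169) was at 1.63 FPKM with 326 counts and 0.35 FPKM with 75 counts, a log2 ratio of -2.22 (interval, -2.60 to -1.85). Cd8b1 (chr6:71322788-71337494), whose product pairs with that of Cd8a on conventional CD8 T cells, was at 1.09 FPKM with 89 counts and 0.14 FPKM with 13 counts. Its log2 ratio of -2.96 was the lowest of the 30 genes, with the widest interval, from -3.93 to -2.11. The genes of CD8 were thus further down than Cd4. The FPKM ratio of Cd8a to Cd4 was 0.384 in the PBS sample and 0.273 in the SJMHE1 sample, and by counts this ratio changed by -0.48 on the log2 scale, with an interval from -0.90 to -0.06. For Cd8b1 against Cd4 the change was -1.13, with an interval from -2.12 to -0.26. With the counts divided by 4, both intervals included 0, from -1.37 to 0.37 for Cd8a and from -3.66 to 0.56 for Cd8b1. Cd4 and Cd8a are also read in subsets of dendritic cells, whose marker genes are given further on.

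The kinases and adaptors of receptor signaling were the least uniform group, with 5 of 8 genes more than 2-fold lower and a median log2 ratio of -1.10. Lck (chr4:129548344-129558391), the kinase that starts the signal, stood at 27.92 FPKM with 4493 counts in the PBS sample and at 25.19 FPKM with 4291 counts in the SJMHE1 sample. Its log2 ratio was -0.15, with an interval from -0.21 to -0.09, the smallest difference of the 30 genes. The level of Lck was 15.8 times that of Cd3e in the PBS sample and 64.6 times in the SJMHE1 sample. Cd3e is the CD3 gene with the lowest log2 ratio, so this contrast is smaller against Cd3d or Cd3g. Zap70, the kinase recruited to CD3, was at 2.77 and 1.44 FPKM with 457 and 251 counts, a log2 ratio of -0.94 (interval, -1.17 to -0.72). Lat, the scaffold it phosphorylates, was at 3.88 and 1.73 FPKM with 591 and 280 counts, a log2 ratio of -1.17. Lcp2, which encodes the adaptor SLP-76 and is also used by myeloid cells and platelets, was at 4.51 and 1.92 FPKM with 1105 and 501 counts, a log2 ratio of -1.23. Skap1, an adaptor of integrin activation, was at 1.32 and 0.64 FPKM with 546 and 280 counts, a log2 ratio of -1.04. These 4 genes lay close to a 2-fold difference, and for Zap70, Lat and Skap1 the interval included -1. Further down were Prkcq, a protein kinase C downstream of CD28, at 1.65 and 0.42 FPKM with 643 and 175 counts, and Themis, an adaptor needed for T cell development in the thymus, at 0.30 and 0.06 FPKM with 193 and 38 counts. Their log2 ratios were -1.97 and -2.32, with intervals from -2.22 to -1.73 and from -2.86 to -1.81. Camk4, a calcium-dependent kinase that is also found in neurons, was at 0.39 and 0.26 FPKM with 71 and 49 counts. Its log2 ratio was -0.58, with an interval from -1.14 to -0.04, so that the difference for Camk4 is barely larger than its counting error.

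Of the costimulatory and adhesion receptors, 6 of 7 genes were more than 2-fold lower, with a median log2 ratio of -1.97. Cd28, the main costimulatory receptor of naive T cells, was at 1.65 FPKM with 556 counts in the PBS sample and at 0.29 FPKM with 103 counts in the SJMHE1 sample, a log2 ratio of -2.51 (interval, -2.83 to -2.20). Ctla4, its inhibitory relative and neighbour on chromosome 1, was at 4.11 FPKM with 526 counts and 1.48 FPKM with 202 counts, a log2 ratio of -1.47 (interval, -1.71 to -1.24). The interval of Cd28 lay wholly below that of Ctla4, and the Cd28 to Ctla4 ratio, chosen for this comparison after the values were seen, changed by -1.05 on the log2 scale with an interval from -1.45 to -0.66. With the counts divided by 4 that interval still lay below 0, from -1.84 to -0.21. Counts of a gene that overlaps Ctla4, given further on, were not removed from this comparison. Icos, a costimulatory receptor of activated and follicular helper T cells in the same cluster of genes, was at 0.83 and 0.23 FPKM with 157 and 47 counts, a log2 ratio of -1.85 (interval, -2.35 to -1.37). Cd40lg, the ligand with which helper T cells signal to CD40 on B cells, was at 1.59 and 0.30 FPKM with 109 and 23 counts, a log2 ratio of -2.41 (interval, -3.12 to -1.75). Cd6, a receptor for ALCAM, was at 1.37 and 0.28 FPKM with 604 and 130 counts, a log2 ratio of -2.29. Thy1, a surface glycoprotein of mouse T cells, was at 4.86 and 1.24 FPKM with 801 and 219 counts, a log2 ratio of -1.97. These were of the same order as the receptor chains, and Cd2 was not. Cd2 (chr3:101275899-101287939) was at 92.48 FPKM with 8839 counts and at 67.97 FPKM with 6877 counts, a log2 ratio of -0.44 (interval, -0.49 to -0.40). In absolute terms, the difference in Cd2 was the largest of the 30 genes, 24.5 FPKM, while it was 1.38 FPKM for Cd3e.

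The 3 transcription factors of the T lineage were all more than 2-fold lower. Tcf7 (chr11:52252371-52283331), which encodes TCF-1 and is also used by innate lymphoid cells, was at 7.39 FPKM with 1226 counts in the PBS sample and at 1.81 FPKM with 318 counts in the SJMHE1 sample. Its log2 ratio was -2.03, with a narrow interval from -2.21 to -1.85. Bcl11b, needed for T lineage commitment, was at 0.93 and 0.17 FPKM with 416 and 79 counts, a log2 ratio of -2.45 (interval, -2.82 to -2.10). Ikzf2, which encodes Helios and is found in many regulatory T cells, was at 0.67 and 0.10 FPKM with 430 and 69 counts, a log2 ratio of -2.74 (interval, -3.13 to -2.37). Helios ranked below every other gene but Cd8b1, and its interval overlaps that of Bcl11b.

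The cytokine receptors were lower for 3 of 3 genes. Il7r, the receptor for the survival cytokine IL-7, was at 2.57 FPKM with 660 counts in the PBS sample and at 0.41 FPKM with 113 counts in the SJMHE1 sample, a log2 ratio of -2.65 (interval, -2.95 to -2.36). Il18r1 and Il18rap encode the chains of the IL-18 receptor and lie side by side on chromosome 1. Il18r1 was at 1.54 and 0.46 FPKM with 408 and 130 counts, a log2 ratio of -1.74 (interval, -2.04 to -1.46). Il18rap was at 1.30 and 0.45 FPKM with 482 and 177 counts, a log2 ratio of -1.53 (interval, -1.79 to -1.28). These chains did not differ from each other beyond counting error, with a change of their ratio of 0.20 and an interval from -0.18 to 0.60, and the interval of Il7r lay wholly below both. With the counts divided by 4 it overlapped that of Il18r1, from -3.29 to -2.08 for Il7r and from -2.39 to -1.18 for Il18r1. IL-18 receptor genes are also read in NK cells.

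**Figure D3:**
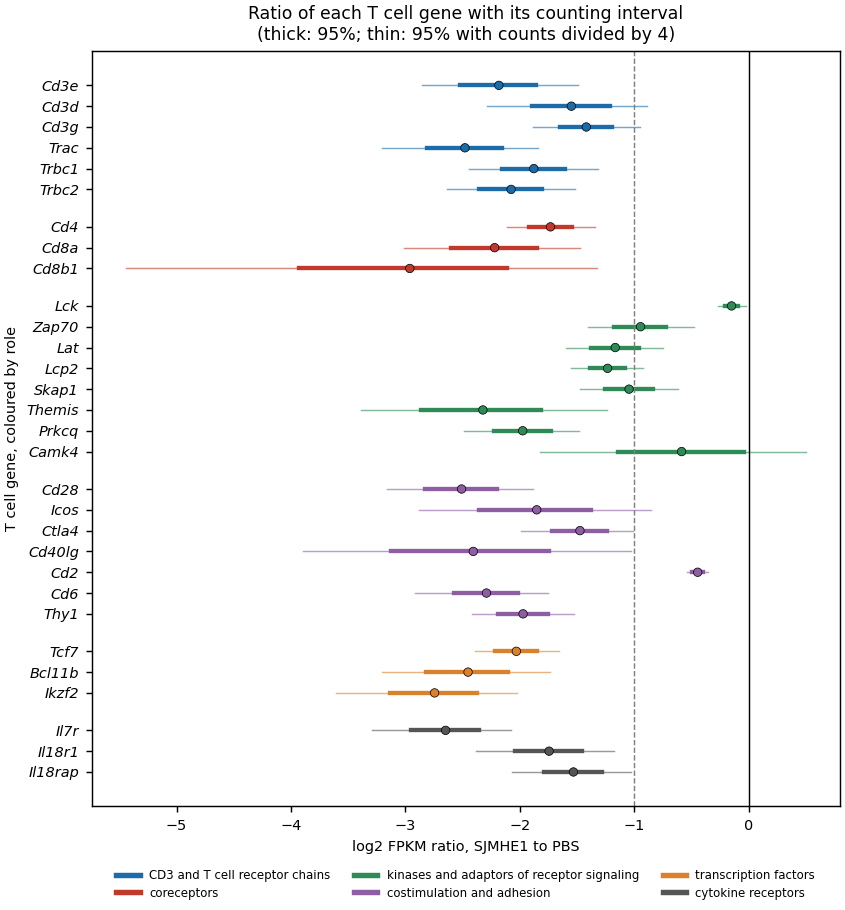
Log2 FPKM ratio of SJMHE1 to PBS (x axis) for each of the 30 T cell genes, coloured by role, with the 95% counting interval as a thick line, the interval with counts divided by 4 as a thin line, a solid line at 0 and a dashed line at -1. The thick line lies wholly below -1 for 24 genes and the thin line for 20, and the thin line reaches past 0 for Camk4.

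The unit of a count was checked on the values. In the PBS library 1084 genes had exactly 4 counts, against 535 genes with 3 and 311 genes with 5, and the SJMHE1 library showed the same pile-up with 1138, 543 and 324 genes. If 1 fragment gave several counts, the counting intervals are too narrow. Therefore the intervals of the log2 ratios of single genes, of ratios between genes and of summed counts were also computed with the counts divided by 4. For the sum of the genes without Lck and Cd2 this interval ran from -1.88 to -1.68, and for the sum of Trac, Trbc1 and Trbc2 from -2.46 to -1.78. The interval lay wholly below -1 for 24 of the 30 genes with the counts as deposited and for 20 genes with the counts divided by 4. It lay wholly below 0 for 30 and 29 genes, the exception being Camk4.

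To compare the T cell genes with each other, the change of each was set against that of the summed CD3 counts, 1232 in the PBS sample and 417 in the SJMHE1 sample. This reference is not uniform. Set against the other CD3 genes, Cd3e lay at -0.71 (interval, -1.10 to -0.33) and Cd3g at 0.45 (interval, 0.12 to 0.79). With the counts divided by 4, both intervals included 0. Which genes are further down than CD3 therefore depends on the CD3 gene used. Of the 27 genes outside CD3, 7 had an interval that included no difference from CD3, 13 were further down and 7 were less far down. The 7 less far down were Lck, Cd2, Camk4, Zap70, Skap1, Lat and Lcp2, of which Lcp2 lay 0.42, Camk4 1.03 and Cd2 1.20 above CD3 on the log2 scale. Among the 13 further down were Cd8b1 with -1.21, Ikzf2 with -1.08, Il7r with -0.98, Cd28 with -0.87, Bcl11b with -0.83 and Trac with -0.82. The genes that could not be separated from CD3 included Cd4, with a difference of -0.08 and an interval from -0.33 to 0.17. With the counts divided by 4, 4 genes were above CD3 and 6 were below it. The T cell genes therefore did not all differ by 1 common factor within counting error, and the spread between mice that would be needed to judge the differences was not measured.

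Other genes of the T cell receptor pathway were taken from a list of 32 that holds none of the 30. Of these, 27 had an FPKM of 1 or more, and 4 were more than 2-fold lower and 0 higher, with a median log2 ratio of -0.08. At an FPKM of 0.1 or more, 8 of 32 were lower and 0 higher, with a median of -0.14. The 4 at the higher minimum included Fyb, an adaptor bound by SLP-76, with a log2 ratio of -1.55, Cd5, a receptor of T cells and B-1 cells, with -1.39, and Sit1, a transmembrane adaptor, with -1.23. Cd247, the zeta chain of the CD3 complex, was below the minimum at 0.92 and 0.22 FPKM, with 271 and 69 counts and a log2 ratio of -2.06. The most abundant genes of the list are also used by B cells. Ptpn6 had a log2 ratio of 0.32, Ptprc, which encodes CD45, 0.21 and Csk -0.10. A second list of 29 genes of T cell identity had 6 of 18 genes more than 2-fold lower at an FPKM of 1 or more and 0 higher, with a median of -0.29. At an FPKM of 0.1 or more, 13 of 29 were lower and 0 higher, with a median of -0.74. The lower ones at the higher minimum were Cd96 with -2.25, Tigit with -1.95, Il2rb with -1.45, Ms4a4b with -1.37, Foxp3, the transcription factor of regulatory T cells, with -1.36 and Igfbp4 with -1.15. Its abundant genes S1pr1, Slamf6 and Dgka, which B cells also express, had log2 ratios of 0.22, 0.10 and -0.03.

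Marker genes of other cells that could be in a B cell sort were set beside the T cell genes. At an FPKM of 0.1 or more, 16 of 16 NK cell genes were lower in the SJMHE1 sample, 11 of them more than 2-fold, with a median log2 ratio of -1.34. Of these 16, 4 are also in another list. Gzma, a granzyme, was the most abundant with 6.57 and 2.96 FPKM, and Ncr1, a receptor that defines NK cells, was at 1.19 and 0.51 FPKM. The summed FPKM of the NK cell list was 35.0 in the PBS sample and 16.6 in the SJMHE1 sample. NK cell genes were thus lower together with T cell genes. Whether T cells contributed to the values of the NK cell list was not tested. For the dendritic cell list, 4 of 10 genes were more than 2-fold lower and the median was -0.90, with Siglech, a receptor of plasmacytoid dendritic cells, at 2.14 and 0.39 FPKM. Its summed FPKM was 24.8 and 17.9, and Batf3 and Clec4a4 were listed at 0 in the SJMHE1 sample. The innate lymphoid cell list had 3 of 6 genes lower and 1 higher. In comparison, 9.18% of all genes were lower and 6.21% higher at this minimum. In each of the remaining lists at most 1 gene was more than 2-fold lower. Macrophage genes had a median of 0.23 with 1 of 14 genes lower and 3 higher, and their summed FPKM was 126 and 73.5. The lower one was the abundant Lyz2 with a log2 ratio of -1.25. The higher ones were Cd5l with 1.83, C1qc with 1.20 and C1qb with 1.01. Erythroid genes had a median of 0.62 with 1 of 9 higher, neutrophil genes a median of -0.22 with 0 of 11 past the threshold, and plasma cell genes a median of -0.29 with 1 of 8 lower. The log2 ratio was below 0 for 4 of 14 macrophage, 0 of 9 erythroid, 7 of 11 neutrophil and 7 of 8 plasma cell genes. The summed FPKM of the plasma cell list was 662 and 556. It was higher in the SJMHE1 sample for the neutrophil list, at 465 and 537, and for the erythroid list, at 154 and 203. Within the macrophage sum, Lyz2 alone stood at 88.8 and 37.4 FPKM. What part these cells have in the values of the T cell genes that they also express was not tested.

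**Figure D4:**
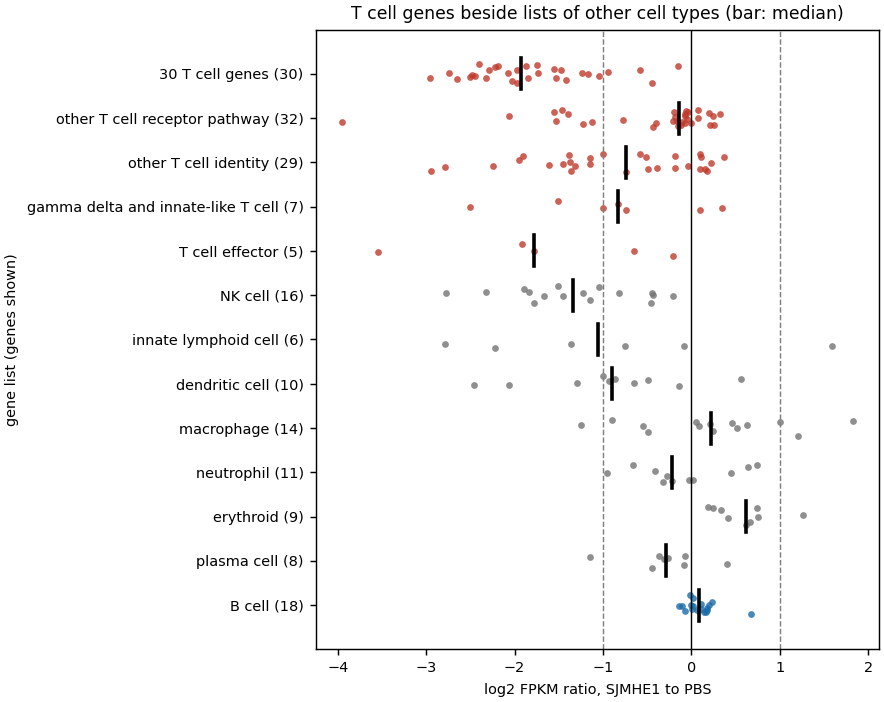
Log2 FPKM ratio of SJMHE1 to PBS (x axis) for the genes of each list with an FPKM of 0.1 or more in a library (number of genes in brackets), with the median as a black bar, T cell lists in red, B cell genes in blue and other cell types in grey. The medians are -1.92 for the 30 T cell genes, -1.34 for NK cell genes, -0.90 for dendritic cell genes and 0.08 for B cell genes.

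Some genes of the table overlap a T cell gene on the chromosome, and the sources used here do not say whether the counting used strand. There are 12 such pairs with 10 of the T cell genes, 5 of them on opposite strands. The overlapping genes had at most 37 counts, for Rpl18-ps1 within Ctla4, with 25 counts in the PBS sample and 37 in the SJMHE1 sample. Ctla4 itself had 526 and 202 counts, so the overlapping counts are not negligible for it in the SJMHE1 sample. Unlike Ctla4, Rpl18-ps1 had more counts in the SJMHE1 sample. Whether the same reads were counted for both genes was not tested. The log2 ratio of Ctla4 and its comparison with Cd28 are uncertain to that extent.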

How the data were processed

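RNA of splenic B cells sorted by flow cytometry was sequenced after rRNA removal, with 3 mice pooled into 1 library per group. The submitters' processing notes name bcl2fastq 2.0, HISAT2, StringTie, DESeq2 and limma and the build mm10. The counting tool and its strand setting are not given in the sources used here. The authors deposited whole-number counts per gene, which are not normalized, and FPKM values, rounded to 2 decimals. The names of 2 further value columns match no sample, and these columns were not used, so no comparison with the Control group was made.

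The measure was the log2 ratio of FPKM, SJMHE1 to PBS, without a pseudocount. A gene was lower or higher past a log2 ratio of 1. The edgeR test for counts needs replicates and was not run. Intervals are exact Clopper-Pearson intervals of the counts, and exact conditional intervals of the odds ratio for the change of a ratio between genes. Ratios between genes other than CD8 to CD4 and those to CD3 were chosen after the values were seen. All 30 genes are named. Of other lists, genes past the threshold, up to 6 a list by size, and the 3 most abundant were eligible, and Cd247, Ncr1, Rpl18-ps1 and, in the closing section, Gata3, Il4, Il21, Trdc, Trgc4 and Zbtb16 were named after their values were seen. The genes and lists were chosen with earlier results of these data known. Promoters are from RefSeq on GRCm38.p6, and exons from GENCODE M21 on GRCm38. Some genes of the lists are not reported here. The calculations were tested on simulated counts that held counting error only, which does not test the intervals on the deposited counts. Alternatives were other pseudocounts, filters, thresholds and scalings, the last with edgeR 4.0.16 (TMM) and DESeq2 1.42.0 (size factors) in R 4.3.3. Python 3.11.15 with scipy 1.17.1, pandas 2.3.3, numpy 2.4.6 and matplotlib 3.10.9 was used.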

Additional observations from a re-analysis of the deposited data

How the results depend on the processing

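No paired analysis was possible because there is only 1 library in a group and no test was made. The number of T cell genes that were lower, 22 of 25, was 9 with a pseudocount of 1, 10 when both libraries had to reach an FPKM of 1 and 10 with a log2 threshold of 2, while the other settings gave 21 to 26. No setting gave a higher T cell gene, but filters, thresholds and pseudocounts could not give one, since all 30 ratios were below 0. Over all genes, 444 lower and 302 higher became 146 and 100 with a pseudocount of 1, 2018 and 1367 with no filter beyond an FPKM above 0, 151 and 101 when both libraries had to reach an FPKM of 1, 1691 and 1144 with the FPKM minimum at 0.1, 983 and 712 with a 1.5-fold threshold, and 118 and 73 with a log2 threshold of 2. The median log2 ratio of the T cell genes, -1.88 over 25 genes, was -0.95 with a pseudocount of 1 and -1.47 when both libraries had to reach an FPKM of 1. The summed share without the 3 genes with the most counts was 0.0267% in the PBS sample and 0.00789% in the SJMHE1 sample. The ratios of single genes were below 0 in 180 of 180 values under 6 settings. This is no check of their direction, because a pseudocount cannot change the sign of a ratio. Scaling by CPM, TMM or DESeq2 size factors moved the median of all genes by at most 0.04. That is too little to bring Lck, the gene nearest to 0 with -0.15, past 0. Of the 180 values, 30 left their counting interval, 25 with a pseudocount of 1 and 5 with a pseudocount of 0.1. A pseudocount shrinks the ratio of low genes by construction. The division of counts by 4 and the background of genes with a mean count from 50 to 1000 were chosen after seeing the data.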

Other observations

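Genes of gamma delta T cells and innate-like T cells were low in both libraries, with 0 of 9 genes at an FPKM of 1 or more, and of the 7 genes that reached an FPKM of 0.1, 2 were more than 2-fold lower, against 9.18% of all genes at this minimum. Trdc, the constant gene of the delta chain, was at 0.39 FPKM with 84 counts in the PBS sample and at 0.22 FPKM with 49 counts in the SJMHE1 sample, a log2 ratio of -0.83 (interval, -1.36 to -0.30). The constant genes of the gamma chain did not share a direction. Trgc1 had 16 and 21 counts, Trgc2 41 and 26 and Trgc4 16 and 18, and the interval of each log2 ratio included 0. With counts divided by 4 the interval of Trdc also included 0, from -2.01 to 0.23. Whether reads were split between these constant genes of the gamma chain was not tested. Zbtb16, which encodes PLZF of innate-like T cells, had 49 and 10 counts and a log2 ratio of -2.50 (interval, -3.65 to -1.50).

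Transcripts of T cell cytokines were detected at low levels, and 3 of 5 effector genes with an FPKM of 0.1 or more were more than 2-fold lower, against the same 9.18% of all genes. Ifng was at 1.27 FPKM with 91 counts in the PBS sample and at 0.37 FPKM with 29 counts in the SJMHE1 sample, a log2 ratio of -1.78 (interval, -2.44 to -1.16). Il4 had 34 and 10 counts and a log2 ratio of -1.91 (interval, -3.10 to -0.86), and the interval included 0 when counts were divided by 4. Il21, a cytokine of follicular helper T cells, had 33 counts in the PBS sample and is listed at 0 in the SJMHE1 sample. Tnf, which B cells also make, was at 8.25 and 5.27 FPKM with a log2 ratio of -0.65. Tbx21, a gene of the effector list that is also in the NK cell list, differed little, at 4.48 and 3.87 FPKM. Its log2 ratio was -0.21 (interval, -0.38 to -0.04). Gata3, the transcription factor of Th2 cells and of innate lymphoid cells, is not in the effector list. It had 166 and 27 counts and a log2 ratio of -2.79 (interval, -3.43 to -2.20). These genes were lower in the SJMHE1 sample, like the T cell genes of the report, and come from the same pair of libraries, so they are not independent of them.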
